A study of Mus musculus with 8 samples.

Results

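Cdh2 and Tns1 are 2 genes of cell adhesion whose transcripts carried many SRSF3-GFP cDNAs along much of their length. They were taken as 2 regions of equal length on the minus strand of the mm9 mouse genome, chromosome 18 from 16745001 to 16970000 for Cdh2 and chromosome 1 from 73950001 to 74175000 for Tns1. The regions were chosen by the density of cDNAs in these same tracks, so the level in them describes the choice and is given without a test. Of all listed positions, Cdh2 held 1869 of 769652 in replicate 1 and 4991 of 2093525 in replicate 2, and Tns1 held 1481 and 4009. The gene names come with the regions. They were not checked against an mm9 annotation, so exons, introns and untranslated regions are not marked in mm9.

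SRSF3 is one of the SR proteins, RNA-binding factors with a domain rich in arginine and serine that help select exons and move mRNA out of the nucleus. Cdh2 encodes N-cadherin, a calcium-dependent adhesion protein that joins neighbouring cardiomyocytes at the intercalated disc and is coupled to actin inside the cell through catenins. Tns1 encodes tensin 1, which binds actin filaments and the tails of integrins at focal adhesions, where cells hold on to the extracellular matrix. A long gene is transcribed as a precursor RNA of which introns make up most, and SR proteins can contact both the precursor and the spliced mRNA.

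The study held 8 mouse samples on the C57BL/6 background. Neonatal cardiomyocytes of newborn pups received modified mRNA for SRSF3 fused to green fluorescent protein by lipofection (15 µg of RNA, 21 µL of Lipofectamine 2000), were irradiated with UV light 48 h later (100 mJ, 254 nm) and gave 2 iCLIP replicates. The labels give no genotype for these cells beyond the strain. The bound protein was thus the transfected fusion and not the cells' own SRSF3. Adult hearts of genotype SRSF3flox/flox;alphaMHC-CreERT2 (3) and alphaMHC-CreERT2 (3), all given 3 doses of 1 mg 4-hydroxytamoxifen and taken 5 days after the last, with Cre driven by the cardiomyocyte promoter alphaMHC, are not analysed here. iCLIP reads, for each cDNA, the nucleotide where reverse transcription stopped beside the crosslinked protein.

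Replicate 1 held 815414 cDNAs and replicate 2 held 2253688. The merged track sums 5 libraries. What remains of it once both replicates are subtracted, 1138453 cDNAs, is referred to as the other libraries. They are counted as 3, taking each replicate as 1 of the 5, though both replicates carry the same library identifier. Their number was not checked further. Values are cDNAs per 1000000 cDNAs of the library (CPM), on which scale a count of 0 allows up to 3.68 CPM in replicate 1 and 1.33 CPM in replicate 2. No control immunoprecipitation and no RNA level of these cells was used here, so a high value cannot be told apart from an abundant RNA. Whether the replicates were separate cultures is not stated in the labels, so every p-value between libraries covers counting error only and may measure a technical difference.

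Over the whole region Cdh2 held 1928 cDNAs in replicate 1 and 5284 in replicate 2. This was 2364 CPM (exact Poisson 95% interval 2260 to 2472) and 2345 CPM (2282 to 2409), or 10.5 ± 0.062 CPM per kb (SD, n = 2). Tns1 held 1570 and 4368 cDNAs, which was 1925 CPM (1831 to 2023) and 1938 CPM (1881 to 1996), or 8.59 ± 0.040 CPM per kb (SD, n = 2). The replicates differed by 0.01 on the log2 scale of replicate 1 to replicate 2 at Cdh2 (exact 95% interval -0.06 to 0.09) and by -0.01 at Tns1 (-0.09 to 0.07), so no difference in level between them was detectable at this depth. Among 22819 windows of the same length and 1 strand with any cDNA, 11 stood above Cdh2 and 15 above Tns1 in the lower of their replicates. This is how the regions were picked and is no finding.

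The signal belonged to 1 strand in both genes. At Cdh2 the minus strand held 99.6% of the cDNAs in replicate 1 (Wilson 95% interval 99.2% to 99.8%) and 99.7% in replicate 2 (99.5% to 99.8%), with 8 and 18 cDNAs on the plus strand. At Tns1 it held 99.2% (98.7% to 99.6%) and 99.1% (98.8% to 99.4%), with 12 and 39 cDNAs on the plus strand. Both genes are also on the minus strand in the GRCm38 annotation.

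The 2 genes ran in opposite directions from 5′ to 3′. Read along the strand, from high to low coordinates, the first 75 kb of the Cdh2 region held 772 cDNAs in replicate 1 and 2069 in replicate 2, the middle 75 kb 766 and 2208, and the last 75 kb 390 and 1007. In density that was 12.4 ± 0.27, 12.8 ± 0.38 and 6.17 ± 0.30 CPM per kb (SD, n = 2). Cdh2 was thus about equally dense in its 5′ and middle parts and sparse at its 3′ end. The log2 ratio of the first to the last 75 kb was 0.99 in replicate 1 and 1.04 in replicate 2, a 2.02-fold higher density on the 5′ side.

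Tns1 was sparse at its 5′ end and dense at its 3′ end. Its first 75 kb held 80 cDNAs in replicate 1 and 220 in replicate 2, its middle 463 and 1402, and its last 75 kb 1027 and 2746, which was 1.30 ± 0.0046, 7.93 ± 0.51 and 16.5 ± 0.39 CPM per kb (SD, n = 2). The last 75 kb thus carried 65.4% of the cDNAs of replicate 1 (Wilson 95% interval 63.0% to 67.7%) and 62.9% of those of replicate 2 (61.4% to 64.3%), against 20.2% (18.5% to 22.1%) and 19.1% (18.0% to 20.1%) for the same part of Cdh2. The log2 ratio of the first to the last 75 kb of Tns1 was -3.68 in replicate 1 and -3.64 in replicate 2, a 12.7-fold higher density on the 3′ side. The size of this ratio depended on where the gene was divided, from -1.85 when only the span with the middle 95% of the cDNAs was divided in 3, to -4.67 between the outer 45 kb at either end and -4.91 over positions with at least 2 cDNAs. With 1 group of 2 libraries there was no test of these gradients between conditions, and the values describe the 2 libraries.

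**Figure D1:**
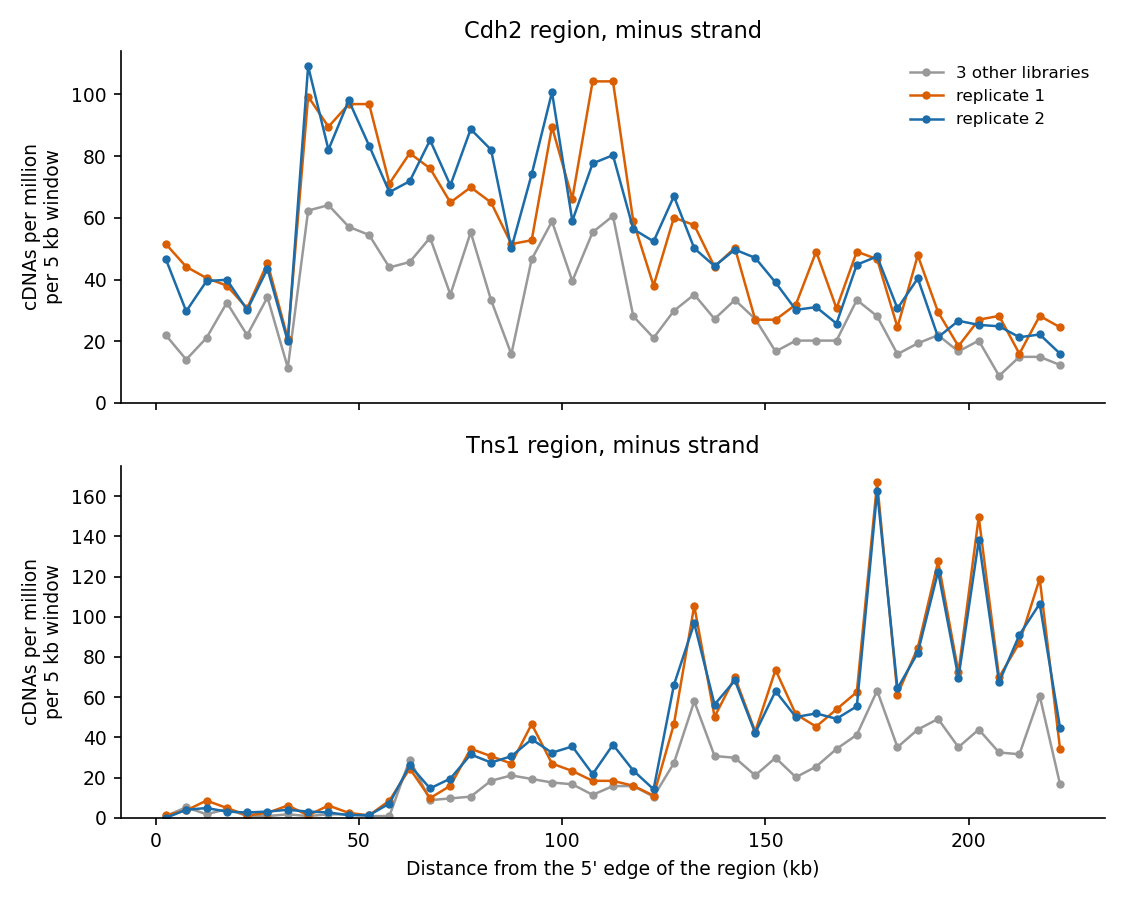
cDNAs per 1000000 (vertical axis, CPM) in each 5 kb window of the minus strand, against the distance from the 5′ edge of the region in kb. Cdh2 is the upper panel and Tns1 the lower, with the 3 other libraries of the merged track in grey, replicate 1 in orange and replicate 2 in blue. Cdh2 was denser from 36 kb after the edge and sparser again toward its 3′ end, while Tns1 was nearly empty before 57 kb and densest near its 3′ end.

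**Figure D2:**
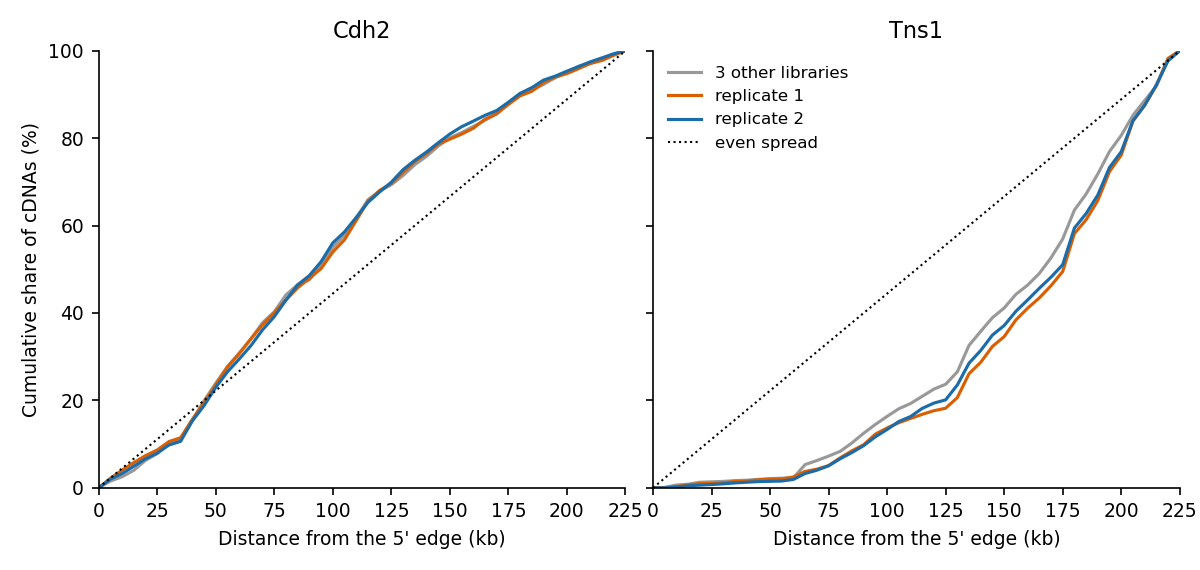
Cumulative share of a region's cDNAs (vertical axis, %) against the distance from its 5′ edge (kb), for the 3 other libraries, replicate 1 and replicate 2. The dotted line is an even spread. The Cdh2 curves run above it over most of the region and the Tns1 curves below it.

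The 25 kb bins showed where within Cdh2 the density changed. Bin 1, at the 5′ end, had 8.19 and 7.44 CPM per kb in the 2 replicates. Bin 3 was the densest by its mean, with 15.6 and 15.2. Bin 5 still held 14.9 and 13.0. Each later bin was sparser than the one before it, with means of 9.95, 7.17, 6.66 and 4.67 CPM per kb in bins 6 to 9. Both replicates therefore gave a low start, a dense stretch over bins 2 to 5 and a gradual thinning after it.

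Cdh2 began sharply. No cDNA of either replicate lay in the 25 kb upstream of the region, and the highest covered coordinate was 16967863 in replicate 1 and 16968014 in replicate 2. The 1 kb from 16966001 to 16967000 already held 19 and 49 cDNAs. A 200 nt stretch within it, 16966801 to 16967000, was among the 5 densest of the gene, with 10 and 17 cDNAs. Past the 3′ edge of the region the signal faded rather than ended: the next 10 kb held 28 and 46 cDNAs, and the 15 kb after those held 6 and 8. These cDNAs lie outside the region and were not assigned to a gene.

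Upward changes between neighbouring 10 kb stretches were scored at boundaries at least 10 kb inside the region. The start of the Cdh2 signal was therefore not scored. The largest change, at coordinate 16934000, was chosen as the step after the profile was seen. The 10 kb on its 3′ side held 171 cDNAs in replicate 1 and 472 in replicate 2, against 51 and 135 in the 10 kb on its 5′ side. This was a log2 ratio of 1.74 and 1.80, present in both libraries. With 5 kb on each side the ratio over both replicates was 2.56, with 20 kb it was 1.59, and the step stayed at the same boundary.

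Lengths in the annotation of another build can be set beside this without moving any coordinate. In GENCODE M21 on GRCm38 the Cdh2 transcript ENSMUST00000025166 has 16 exons over 220.4 kb, of which exons make up 2.20%. Its second exon begins 34.6 kb after the transcript start and is followed by an intron of 124.0 kb, the longest of the gene. In the mm9 data the step lay 34.0 kb after the highest covered position. Whether the step and the second exon are the same place was not tested, and the step has a resolution of 1 kb.

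Tns1 had no sharp start. Its first 2 bins of 25 kb held 16 and 15 cDNAs in replicate 1 and 33 and 32 in replicate 2, and the highest covered coordinate was 74170394 in replicate 1 and 74169989 in replicate 2. The largest upward change lay at 74118000, where the 10 kb on the 3′ side held 35 cDNAs in replicate 1 and 86 in replicate 2, against 2 and 6 on the 5′ side. On the log2 scale that was 3.83 and 3.73, though it rests on 8 cDNAs before the step. With 5 kb or 20 kb on each side the boundary moved by 2 kb to 74116000.

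Downstream of this step the density of Tns1 rose unevenly. Bins 4 and 5 of 25 kb averaged 6.53 ± 0.13 and 4.37 ± 1.25 CPM per kb (SD, n = 2). Bin 6 averaged 12.9 ± 0.41 and bin 8, the densest, 20.3 ± 0.33 (SD, n = 2). Bins 7 and 9 were each lower than the bin before, with 11.1 ± 0.49 and 18.2 ± 0.34 CPM per kb (SD, n = 2). Beyond the 3′ edge of the region the next 10 kb held 22 and 90 cDNAs in replicates 1 and 2, and the last 5 kb window inside it held 28 and 101.

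**Figure D3:**
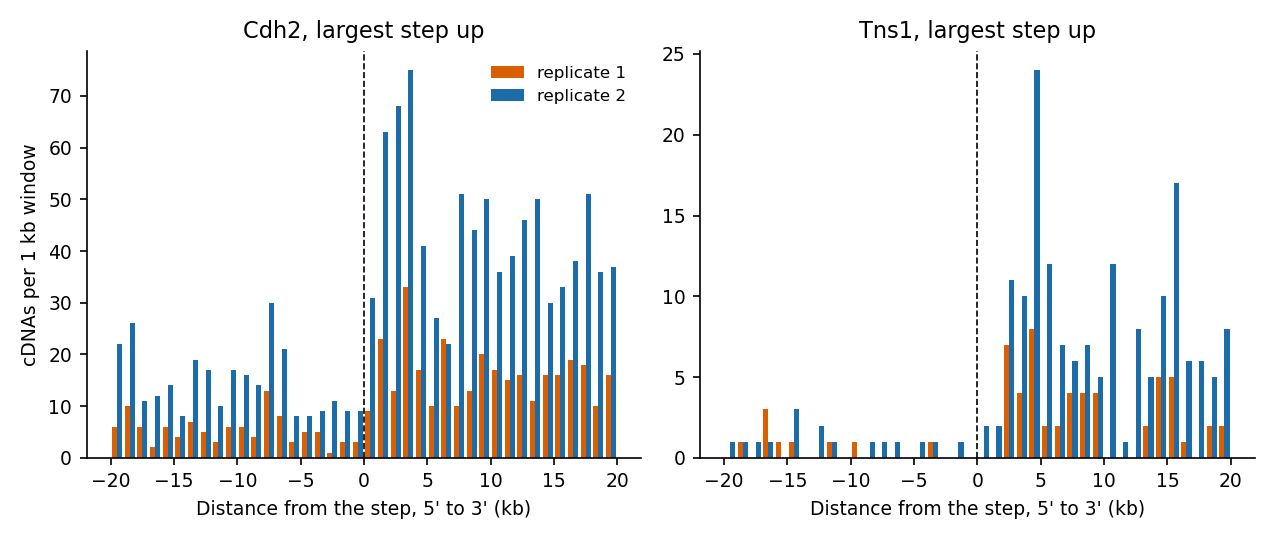
cDNAs in each 1 kb window (vertical axis, count) within 20 kb of the largest upward change scored inside the region, with replicate 1 in orange and replicate 2 in blue. Cdh2 is on the left and Tns1 on the right, the dashed line is the boundary, and the vertical axes differ. At Cdh2 every window between the boundary and 5 kb on its 3′ side held at least 9 cDNAs in replicate 1, and at Tns1 most windows before the boundary held 0 or 1.

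Within each gene the 5 strongest windows of 5 kb were set apart differently. In Cdh2 they were 16930001 to 16935000, just after the step, with 99.3 CPM in replicate 1 and 109 in replicate 2, and 16920001 to 16925000 with 96.9 and 98.1. The windows starting at 16870001, 16915001 and 16925001 followed, with means of 95.1 ± 7.92, 90.2 ± 9.52 and 85.8 ± 5.26 CPM (SD, n = 2). These 5 windows lay within a narrow range of each other and together held 19.97% of the Cdh2 cDNAs in replicate 1 and 20.2% in replicate 2, on 11.1% of its length. The replicate values overlap between some of these windows and not between others, and no order among them was tested.

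Tns1 had stronger and more separate windows. The first, 73995001 to 74000000, held 136 cDNAs in replicate 1 and 366 in replicate 2, which was 167 and 162 CPM. The window from 73970001 followed with 150 and 138 CPM, and that from 73980001 with 128 and 122. Those starting at 73955001 and 74040001 had 119 and 106 CPM and 105 and 96.7 CPM. Together the 5 windows held 34.7% of the Tns1 cDNAs in replicate 1 and 32.3% in replicate 2, also on 11.1% of the length. The windows between the first 3 were lower: those starting at 73975001, 73985001 and 73990001 had 72.4, 84.6 and 61.3 CPM in replicate 1.

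At 1 kb the difference in texture was larger. The densest 1 kb of Tns1, 73999001 to 74000000, held 73 cDNAs in replicate 1 and 195 in replicate 2, and over both replicates it was 14.9 times the median 1 kb window of the region. In Cdh2 the densest, 16930001 to 16931000, held 33 and 75, or 3.72 times its median. The 25 densest windows of 1 kb held 42.0% and 37.7% of the Tns1 cDNAs and 23.4% and 22.6% of the Cdh2 cDNAs in replicates 1 and 2. The variance of the pooled counts was 38.7 times their mean across the 1 kb windows of Tns1 and 10.8 times in Cdh2. Of the 1 kb windows, 13 of Tns1 (5.78%) and 3 of Cdh2 (1.33%) had no cDNA in either replicate. All 13 of the Tns1 windows lay on the 5′ side of its largest upward change, so these measures include the gradient along the gene. On the 3′ side of the change, over 168 windows of Tns1 and 189 of Cdh2, the densest 1 kb was 10.3 and 3.27 times the median, and the variance was 31.4 and 10.5 times the mean. The density of both genes still changes along this side, so these measures also include part of the gradients.

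**Figure D4:**
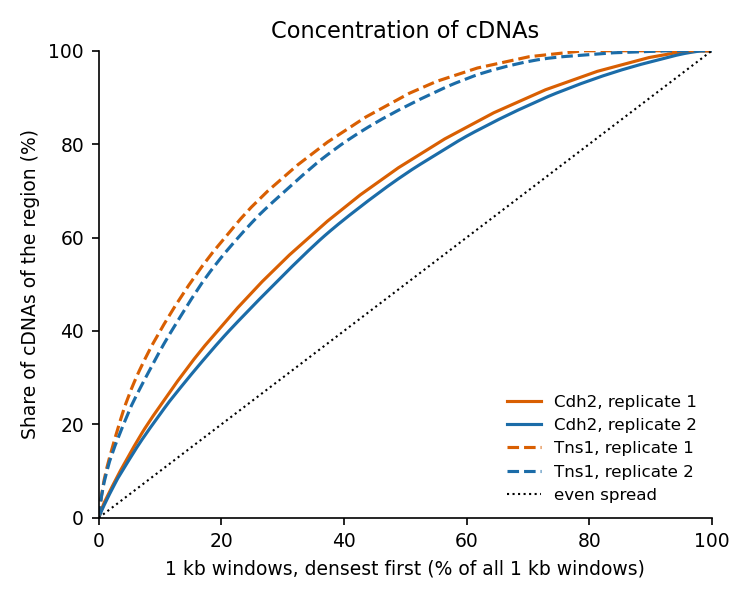
Share of a region's cDNAs (vertical axis, %) held by its 1 kb windows taken from the densest down (horizontal axis, % of all 1 kb windows), with Cdh2 as solid and Tns1 as dashed lines, replicate 1 in orange and replicate 2 in blue. The dotted line is an even spread. Both Tns1 lines lie above both Cdh2 lines.

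Among stretches of 200 nt, chosen after their values were seen, Tns1 had 73999001 to 73999200 with 24 cDNAs in replicate 1 and 63 in replicate 2, and 73971401 to 73971600 with 23 and 60. These were 5.03 and 5.69 times as dense as the rest of the 5 kb window around them. The stretch from 73982401 to 73982600, with 16 and 39 cDNAs, was 4.06 times as dense. Those from 73999401 and 73999201, also among the 5 densest of Tns1, were 2.95 and 2.60 times as dense as the rest of their window. Together with the stretch from 73999001 they form 1 unbroken dense run in the same 5 kb window. The rest of the window of each thus includes the others, which lowers all of their ratios. These ratios cannot be compared with those of the other stretches. The densest 200 nt of Cdh2, 16930201 to 16930400, held 11 and 26 cDNAs, 3.06 times the rest of its window. Of the 5 densest stretches of Cdh2, the 5′-most one at 16966801 had the highest ratio, 5.4 times. Its window reaches beyond the start of the signal. The 1 kb from 16968001 held 0 and 1 cDNAs, and that from 16969001 held none. This lowers the rest of the window, so the ratio cannot be compared with the others.

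The annotated lengths of Tns1 in GRCm38 can be given beside these stretches as well. Transcript ENSMUST00000191104 has 33 exons over 214.2 kb, of which exons make up 4.62%. Apart from its last exon of 4443 nt, its longest are exon 19, with 1530 nt and 170.5 kb from the transcript start, and exon 24, with 1064 nt and 198.7 kb from it. The densest and the next densest 1 kb windows began 170.4 and 198.4 kb from the highest covered position of the replicates. The third densest began 187.4 kb from that position, and exon 22, of only 93 nt, begins 187.1 kb from the transcript start. The last exon, the longest, begins 209.8 kb from the transcript start, and none of the 3 densest windows of 1 kb began near that distance. The 5 kb window from 73955001 does lie near that distance from the highest covered position. It was among the 5 strongest of Tns1, with 119 and 106 CPM in replicates 1 and 2. The third exon begins 55.8 kb from the annotated start, and the step of Tns1 lay 52.4 kb from the highest covered position, or 2 kb farther on with the other stretch lengths. Whether any of these coincide was not tested, since no coordinate was carried between builds and the sparse start of Tns1 makes the origin of its distances uncertain by kilobases.

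Single nucleotides in Cdh2 rarely held more than 1 cDNA, as in the whole series. No position exceeded 3 cDNAs in replicate 1 or 4 in replicate 2. Positions with 2 or more made up 3.05% and 5.41% of those listed, beside 3.12% and 4.13% in the whole series. At 16924466, the strongest by the lower replicate, each replicate had 2 cDNAs. The next 4 positions, 16952179, 16878126, 16799029 and 16786109, each had 1 cDNA in 1 of the replicates, too few to single out a site.

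Tns1 had positions that both replicates filled repeatedly. Position 73971563 held 3 cDNAs in replicate 1 and 6 in replicate 2, and 73982575 held 3 and 5. Position 73967661 held 4 and 3, and so did 73999410, while 74032880 held 2 and 4. Those at 73971563, 73982575 and 73999410 lie in the 3 densest windows of 1 kb. In all, 5.06% of the Tns1 positions in replicate 1 and 7.01% in replicate 2 held 2 or more cDNAs, against 3.12% and 4.13% in the whole series, a difference that was not tested. In the merged track 19 positions of Tns1 and none of Cdh2 reached 5 cDNAs.

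Recurrence of single positions was read beside the local coverage. Of the Cdh2 positions of replicate 1, 140 of 1869 were listed at the same nucleotide in replicate 2, 7.49% (Wilson 95% interval 6.38% to 8.77%), where replicate 2 listed 2.84% of the nucleotides in the same 1 kb windows. At Tns1 157 of 1481 recurred, 10.6% (9.13% to 12.3%), where replicate 2 listed 4.08%. The share was thus 2.63 and 2.60 times the local coverage in Cdh2 and Tns1, and 2.28 times in the whole series. Among positions with 2 or more cDNAs in replicate 1, 7 of 57 in Cdh2 recurred, 12.3% (6.08% to 23.2%), and 26 of 75 in Tns1, 34.7% (24.9% to 45.9%). In the whole series 9267 of 24049 such positions recurred, 38.5% (37.9% to 39.2%). Replicate 2 listed 2.95% of the nucleotides around these positions in Cdh2, 5.75% in Tns1 and 19.9% in the whole series, and the differences in recurrence were not tested. Counting positions within 5 nt as shared gave 35.8% for Cdh2, 44.8% for Tns1 and 17.4% for the whole series. Of the nucleotides in the same 1 kb windows, 24.7%, 29.9% and 10.8% lay within 5 nt of a replicate 2 position in Cdh2, Tns1 and the whole series.

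The profiles agreed closely between the replicates at the scale of 5 kb. Across the 45 windows of a region, log2(CPM + 1) of the replicates had a Pearson r of 0.904 and the counts a Spearman rho of 0.913 in Cdh2, and 0.974 and 0.980 in Tns1. Windows of 1 kb gave r of 0.755 in Cdh2 and 0.889 in Tns1. These correlations run across windows of 1 RNA, which are not independent, and they include the gradient along each gene. The mean of the 5 kb windows ran from 18.6 to 104 CPM in Cdh2 and from 0.61 to 165 CPM in Tns1. The correlations of the genes therefore cannot be ranked, and the part of the gradients in them was not tested.

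No window of either gene passed the test of replicate 1 against replicate 2. Over the genome 9366 windows of 5 kb and 1 strand held at least 50 cDNAs, and 13 of them, 0.139%, had a Benjamini-Hochberg adjusted p under 5% (exact binomial test, two-sided, with the share expected from both library totals). None of the 45 Cdh2 windows and none of the 31 Tns1 windows tested was among them, where the remaining 14 Tns1 windows were too sparse to test. At an unadjusted p under 0.05 there were 3 Cdh2 windows and 1 Tns1 window, against 5.58% of all windows tested. The largest log2 differences were -0.80 at 16820001 in Cdh2, with 22 and 106 cDNAs, and -0.98 at 74060001 in Tns1, with 15 and 82, and neither passed the adjustment (exact binomial test, adjusted p = 0.678 and 0.632).

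Both genes were lower in the other libraries of the merged track. The other libraries held 1622 cDNAs on Cdh2, or 1425 CPM, against 2364 CPM in replicate 1 and 2345 CPM in replicate 2. On Tns1 they held 1089 cDNAs, or 957 CPM, against 1925 and 1938 CPM. The log2 ratio of the other libraries to both replicates was -0.72 at Cdh2 (exact 95% interval -0.80 to -0.64) and -1.02 at Tns1 (-1.11 to -0.92). Beyond their identifiers, the sources used here do not say what these libraries are.

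By window, 26 of the 45 Cdh2 windows were lower in the other libraries and none higher, and 22 of 33 tested Tns1 windows were lower and none higher (exact binomial test, two-sided, adjusted over all windows). Over the genome 15.2% of the 16180 windows tested were lower and 13.4% higher, beside 57.8% lower in Cdh2 and 66.7% lower in Tns1. The median log2 ratio was -0.67 over the Cdh2 windows and -0.95 over the Tns1 windows, against -0.23 over all windows tested. The smallest adjusted p in Tns1 belonged to the window from 73970001, which had 50 cDNAs in the other libraries, or 43.9 CPM, against 150 and 138 CPM in replicates 1 and 2, a log2 ratio of -1.68 (exact binomial test, adjusted p = 1.63e-17), and the next smallest to that from 73995001, with a ratio of -1.37 (adjusted p = 2.57e-15, exact binomial test). A ratio of -1.61 was also found at the sparser window from 74095001, with 12 cDNAs in the other libraries against 28 and 71 in the replicates (exact binomial test, adjusted p = 0.000395). In Cdh2 the lowest ratio was -1.68 at 16880001, with 18 cDNAs in the other libraries against 42 and 113 in the replicates (exact binomial test, adjusted p = 2.19e-06). The windows were chosen for their density in tracks that include the replicates, and the part of that choice in these ratios was not tested.

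**Figure D5:**
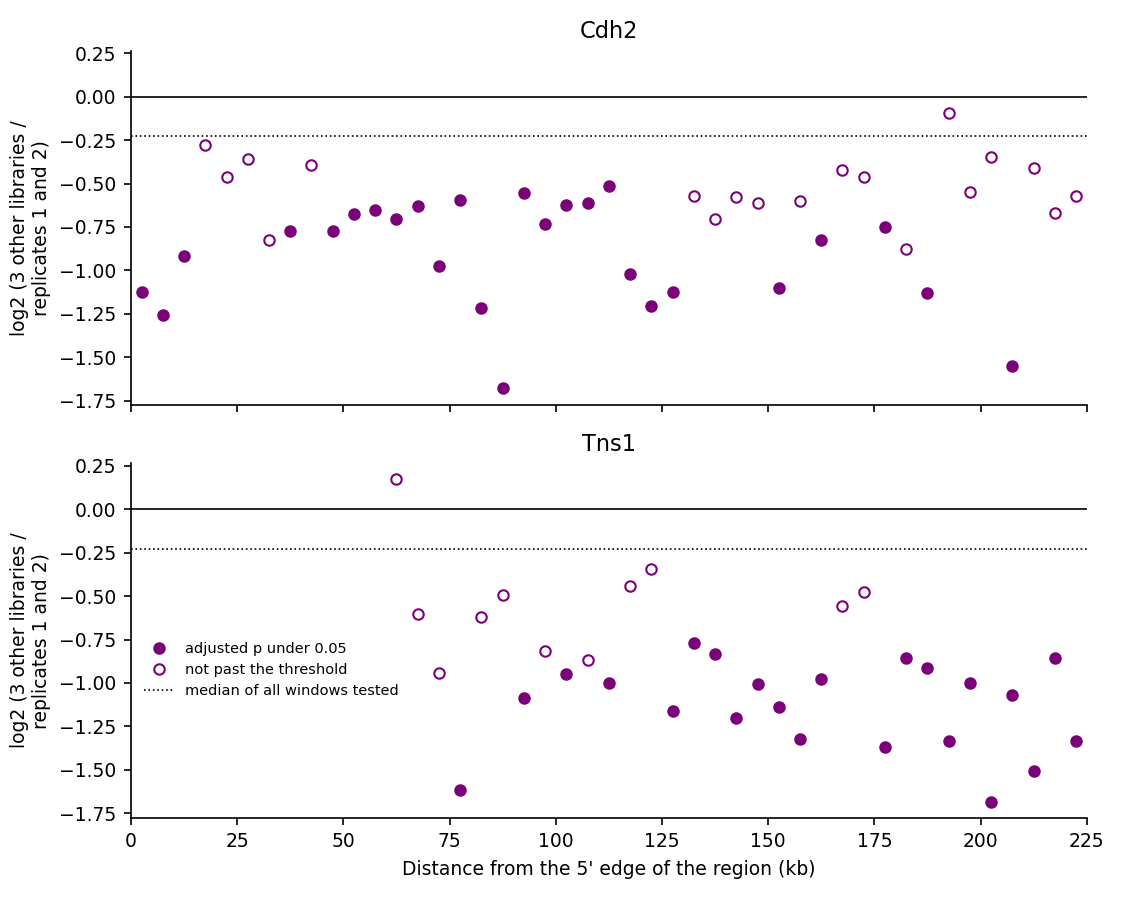
log2 ratio of CPM in the 3 other libraries to CPM in replicates 1 and 2 together (vertical axis) for each 5 kb window with at least 50 cDNAs, against the distance from the 5′ edge (kb), with Cdh2 above Tns1. Filled points passed a 5% false discovery rate and open points did not. The solid line is 0 and the dotted line the median of all windows tested, -0.23. Filled points lie below both lines in each gene.

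The direction of both gradients was also present in the other libraries. Their log2 ratio of the first to the last 75 kb was 1.02 in Cdh2, where replicates 1 and 2 had 0.99 and 1.04, and -3.02 in Tns1, where they had -3.68 and -3.64. The last 75 kb of Tns1 held 58.9% of its cDNAs in the other libraries (Wilson 95% interval 55.9% to 61.7%), against 65.4% and 62.9% in replicates 1 and 2. The step of Cdh2 was seen there too, with 155 cDNAs on its 3′ side and 54 on its 5′ side. At the densest 1 kb of Tns1 the other libraries had 24.6 CPM, against 89.5 and 86.5 CPM in the replicates, by which that window was chosen. None of the Tns1 positions of the other libraries held more than 2 cDNAs.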

How the data were processed

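The authors' deposited iCLIP tracks hold cDNA hits in the mm9 genome (annotation Ensembl 59), per the file headers. Bowtie 0.10.1 is named as a tool, per the submitters' processing notes. Each position has a signed score: its size is the cDNA count and its sign the strand, per the deposited values. The handling of duplicates and of reads with several matches is not given in the sources consulted. The headers give both replicates the same library identifier and list 5 libraries for the merged track. Groups came from the labels.

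cDNAs per window were divided by library totals. Windows of 5 kb and 1 strand with at least 50 cDNAs were tested genome-wide by two-sided exact binomial tests with Benjamini-Hochberg adjustment (SciPy 1.17.1, Python 3.11.15). The test was also run on simulated Poisson counts without added variation between libraries. That run therefore says nothing about such variation in the real libraries. Intervals and the limit of a 0 (3 cDNAs) cover counting error only. Named were both genes, the 5 strongest windows and positions of each by the lower replicate, and windows past a test, these by count where many. Members, regions and lists were chosen with earlier results of these data known, and steps, 25 kb bins and stretches of 200 nt and 1 kb after their values were seen. A list of adhesion genes was planned and not computed, since the annotation used here is of another build. No mm9 sequence was used here, so none is printed. The hearts were not used here.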

Additional observations from a re-analysis of the deposited data

How the results depend on the processing

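The gradients of Cdh2 and Tns1 kept their direction under every alternative run. For density, gradient and share in the highest windows, values given are those that left the range of 1 SD of the 2 replicates, which is narrow. Recurrence, window counts and steps have no such SD, and only some of their alternatives are given. With each position counted once, density was 10.7 and 8.53 CPM per kb at Cdh2 and Tns1. It was 9.33 and 7.42 in the merged track, 8.76 and 11.0 over positions with at least 2 cDNAs, and 10.9 and 8.97 with totals without the mitochondrial genome and the 10 highest windows. The log2 ratio of the first to the last 75 kb of Cdh2 was 1.29 over positions with at least 2 cDNAs, 0.93 for the outer 45 kb, 0.94 within the span of the middle 95% and 0.84 without the highest window. For Tns1 these were -4.91, -4.67, -1.85 and -3.46, with -3.59 for positions counted once and -3.54 in the merged track. The share in the 5 highest windows of Cdh2 was 20.3% in the merged track, 22.7% over positions with at least 2 cDNAs and 23.0% in 25 windows of 1 kb, and that of Tns1 was 47.8% and 39.8% under the last 2. Recurrence in Cdh2 and Tns1 was 35.8% and 44.8% within 5 nt, beside 17.4% in the whole series, and 12.3% and 34.7% for positions with at least 2 cDNAs, beside 38.5%. Local coverage differs between these sets. Windows differing between replicates were 20 with positions counted once, against 13, and none was in either gene under any alternative. At a minimum of 20 cDNAs 7405 of 55741 windows differed in the other libraries, 13.3%, with 22 of 45 in Cdh2 and 21 of 35 in Tns1, beside 4631 of 16180, 28.6%, in the result reported. Without replicate 2 there were 1857 of 4041 windows, 46.0%, with 20 of 33 in Cdh2 and 15 of 21 in Tns1. Without replicate 1 there were 3868 of 11273, 34.3%, with 25 of 45 and 23 of 31. In windows of 10 kb there were 6083 of 21841, 27.9%, with 20 of 23 in Cdh2 and 14 of 17 in Tns1. The cause of these shifts was not tested. With stretches of 5, 10 and 20 kb, lengths added after seeing the data, boundaries nearer to an edge than the stretch were not scored. The largest step scored was 2.56, 1.79 and 1.59 on the log2 scale in Cdh2, each time at 16934000. In Tns1 it was 3.99, 3.84 and 3.15, at 74118000 with 10 kb and at 74116000 with the others. No paired analysis was possible because the iCLIP libraries form 1 group. A count of 0 allows up to 3.68 CPM in replicate 1 and 1.33 CPM in replicate 2.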
